A study of Bos taurus with 6 samples.

Results

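The genes of the mitochondrial genome were described as all rows of the deposited table of genes whose locus lies on chromosome MT. They were 37 of the 47249 genes in the table, and comprised 13 mRNA genes, 2 rRNA genes and 22 tRNA genes. No assembled locus without an Ensembl identifier lay on MT. All 37 had an entry of the same start and end in the RefSeq annotation of cattle. By their labels and the paper, the libraries were made from testis RNA of Wandong cattle, with 1 library per animal. The animals were untreated, 3 immature calves of 3 months (± 0.24) and 3 andrologically mature bulls of 3 years (± 0.014). These ± values are those of the Methods, and the Results of the paper give them the other way round. Total RNA was depleted of ribosomal RNA before strand-specific sequencing. Values are FPKM, the fragments of a gene scaled to its length and to the number of mapped fragments in the library. Where 3 values are given for calves or bulls, they stand in the order of the animals' numbers, 1 to 3. The paper gives the clean reads of each library, but the tables give no counts. The fragments behind a value were not estimated, and its error was taken from the spread between animals.

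The mitochondrial genome encodes a small set of proteins, all of them subunits of the respiratory chain or of ATP synthase, and the rRNAs and tRNAs with which the organelle translates them. Both strands are transcribed into long precursors, and the tRNAs that punctuate most gene borders are cut out to release the mRNAs and rRNAs. Germ cells and somatic cells of the testis differ in their mitochondria and in their use of oxidative metabolism, and the nuclear genome supplies the remaining subunits and the protein factors for mitochondrial gene expression.

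The library labelled calf 3 stood apart from the other libraries, and the fold changes of the mitochondrial genes are given with and without it. The summed FPKM of 6 oligodendrocyte markers was 13017 in calf 3 and at most 29.4 in any other library (lowest 19.7). Sums of astrocyte and neuron markers were 2092 and 823 in calf 3, against at most 28.1 and 15.2 elsewhere. Leydig cell markers summed to 0.502 in calf 3, with CYP11A1 and CYP17A1 listed at 0, and to between 1141 and 2738 elsewhere. The 8 Sertoli cell markers summed to 867 in calf 3, below 2812 and 2696 in calf 1 and calf 2 but above the 440 to 468 of the bulls. Of these markers, 3 reached an FPKM of 1 in calf 3, and FSHR, GATA4 and WT1 were listed at 0. Spermatogonia markers summed to 283 in calf 3 and to between 110 and 142 elsewhere. The sum does not show which marker carried it: 5 of the 6 reached an FPKM of 1 in calf 3, and 6 in calf 1 and calf 2. Of 7 spermatocyte markers, 1 reached it in calf 3, and 6 in calf 1 and in calf 2. Cell content also differed between the ages: 6 round spermatid markers summed to between 0.480 and 3.098 in calves and between 397 and 479 in bulls. The part of these differences in the values below was not tested. Whether the tissue of calf 3 is the one its label names was not tested either, and calf means with n = 3 include this library. In whole tissue, fewer cells of a type and less mitochondrial RNA per cell cannot be told apart.

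Mitochondrial mRNAs were among the most abundant messages of every library. COX1, COX2 and COX3, the core subunits of cytochrome c oxidase (complex IV), were the 3 highest of the 13 in each library. COX1 (ENSBTAG00000043561, MT 5687 to 7231) had an FPKM of 2107, 3089 and 7580 in the calves and of 2258, 1657 and 2368 in the bulls. It ranked between 1 and 9 by FPKM among 16660 protein-coding genes. COX2 (MT 7374 to 8057) had an FPKM of 1858, 2923 and 4998 in the calves and 2262, 1596 and 1862 in the bulls, with ranks between 3 and 15. Calf 3 was highest for both genes, and the bulls lay around calf 1. At the other end were ATP6 (MT 8290 to 8970), a subunit of the proton channel of ATP synthase (complex V), and ND5 (MT 12109 to 13929), a subunit of NADH dehydrogenase (complex I). ATP6 lay between 19.97 and 126 FPKM and ranked between 241 and 3827, and ND5 lay between 18.2 and 156 FPKM and ranked between 180 and 4022. The mRNA of ATP6 also carries ATP8, which had a higher FPKM in every library, so the rank of ATP6 may not be that of the message. Within a library, the highest of the 13 exceeded the lowest by 60.2-fold in calf 3 to 124-fold in bull 1. COX1 and COX2 did not keep an order beyond their spread: the ratio of their FPKM was 1.13, 1.06 and 1.52 in the calves and 0.998, 1.04 and 1.27 in the bulls.

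**Figure D1:**
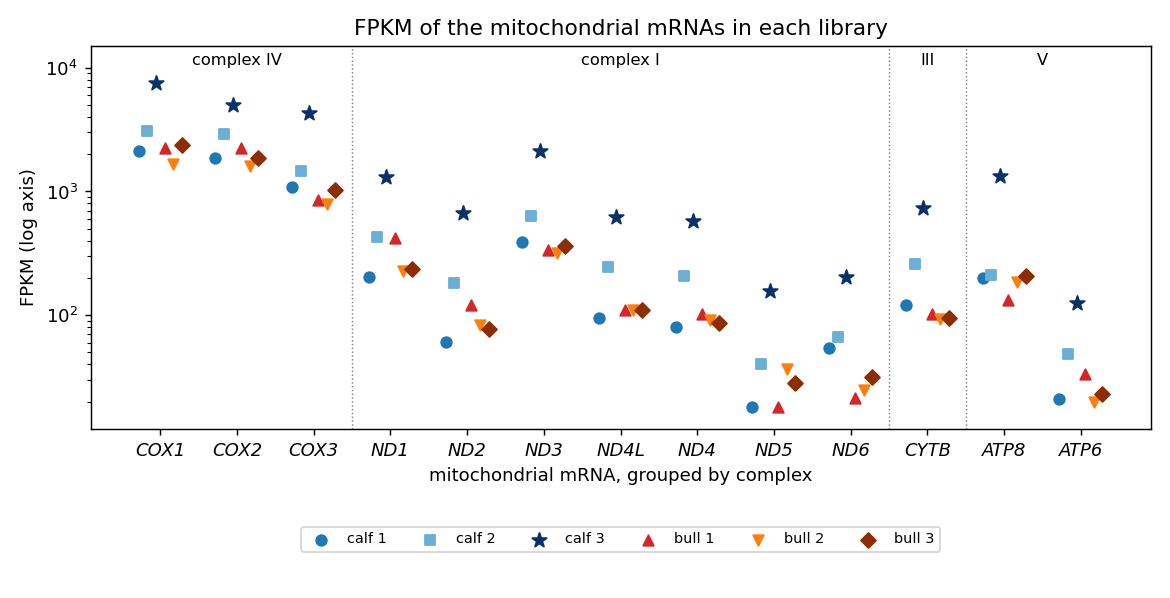
FPKM (log axis) of each of the 13 mitochondrial mRNAs in each library, grouped by the complex of the encoded protein, with 1 point per library. Calf 3 (star) is highest for all 13 mRNAs, and the 3 bulls lie below all calves for COX3, ND3, ND6 and CYTB.

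FPKM values of neighbouring genes differed although many are released from the same precursor. ATP8 (MT 8129 to 8329) and ATP6, which share 40 bases and are known to be carried by a single mRNA, differed by 9.57, 4.39 and 10.7-fold in FPKM in the calves and by 3.96, 9.29 and 9.04-fold in the bulls, with ATP8 higher in all 6 libraries. The ranges of this ratio overlapped between the ages (two-sided exact permutation test, p = 0.5, n = 3). COX3, which follows ATP6 and shares 1 base with it, was also far above ATP6 in all libraries. ND4L (MT 10239 to 10535) and ND4 (MT 10529 to 11906), a second pair with a common mRNA and 7 shared bases, lay close together instead, at ratios between 1.07 and 1.29. As 1 mRNA carries ATP8 and ATP6, their ratio in FPKM cannot be read as a difference between separate messages. Fragments from shared bases cannot be assigned to 1 gene of a pair, and ATP8, of 201 bases, is the shortest of the 13. The part of either in this ratio was not tested.

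The summed FPKM of the 13 mRNAs was 6286, 9807 and 24724 in the calves and 6772, 5243 and 6518 in the bulls. Calf 1 lay within the range of the bulls, so the groups overlapped, and the difference could not be separated from the spread between calves (two-sided exact permutation test, p = 0.3, n = 3). As a share of the summed FPKM of protein-coding genes, they made up 2.09%, 3.13% and 9.35% in the calves and 1.90%, 1.49% and 1.87% in the bulls. All bulls were below all calves in this share, with means of 4.86% ± 3.93 (SD, n = 3) and 1.75% ± 0.229 (SD, n = 3) in calves and bulls (two-sided exact permutation test, p = 0.1). With 3 animals against 3 no lower p can be reached, so no such comparison could pass 0.05. The separation depended on the denominator. As a share of the summed FPKM of all genes, the values were 0.590%, 0.893% and 4.21% in the calves and 0.872%, 0.681% and 0.890% in the bulls, so the ages overlapped and calf 1 was below every bull. For protein-coding genes without calf 3 the calf mean was 2.61%, and the difference shrank from −3.102 to −0.855 percentage points.

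All 13 mRNAs had a lower mean log2(FPKM + 1) in bulls than in calves, but only ND6 passed the test. In limma, with adjustment over all 18115 genes tested, 1 of 13 was called lower and 0 higher in bulls (a call needed an adjusted p under 0.05 and a change of 1 or more on the log2 scale), and 1 had an unadjusted p below 0.05. Of all genes tested, 9.61% were called lower and 35.7% higher. Without calf 1, 5 of 13 were called lower (ATP6, ND4L, ND4, ND6 and CYTB, background 9.19%), and without bull 1, bull 2 or bull 3, 0 of 13 (background 6.72%, 7.12% and 7.17%). The log2 fold changes (bull minus calf) lay between −1.79 and −0.67 with a median of −1.09, where the median of all genes tested was 0.43. Without calf 3 all 13 were still below 0, with a median of −0.35 and a range from −1.21 to −0.028, and ND6 was again the 1 called gene (background 13.6% lower and 37.9% higher). The scaling of the libraries moved these values. After upper-quartile scaling the median of the 13 was −1.72 (range −2.40 to −1.30), where that of all genes tested was −0.084. After quantile normalization it was −1.64 (range −2.56 to 0.14), where that of all genes tested was −0.26, and COX2 changed sign to 0.14.

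ND6 (ENSBTAG00000043546, MT 13913 to 14440) encodes a membrane subunit of complex I and is the 1 mRNA known to be transcribed from the opposite strand to all others. Its FPKM was 54.6, 66.7 and 204 in the calves and 21.3, 24.8 and 31.8 in the bulls. The lowest calf was above the highest bull. On the log2 scale the difference was −1.79 ± 0.51 (SE, adjusted p = 0.0268, limma). Without calf 3 it was −1.21 ± 0.19 (SE, adjusted p = 0.0014, limma). The call was lost when any bull was left out: without bull 1, bull 2 or bull 3 the adjusted p was 0.0958, 0.085 and 0.0622 (limma), at log2 fold changes of −1.66, −1.76 and −1.94.

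Relative to ND5, its neighbour on the genome, ND6 was lower in all bulls than in all calves. This ratio was not a planned comparison, and it draws on the same ND6 values as the call. ND5, which ends within ND6 with 17 shared bases on the other strand, had an FPKM of 18.2, 40.3 and 156 in the calves and 18.2, 36.4 and 28.2 in the bulls. Those ranges overlapped, and the log2 fold change was −0.85 (adjusted p = 0.384, limma), and −0.028 without calf 3 (adjusted p = 0.953). The ratio of ND6 to ND5 in FPKM was 3.00, 1.66 and 1.31 in the calves and 1.17, 0.679 and 1.13 in the bulls. Every bull lay below every calf, calf 3 included (two-sided exact permutation test, p = 0.1). Against CYTB, the next mRNA on the other side beyond a tRNA gene, the ratio overlapped between the ages, at 0.258 to 0.448 in calves and 0.209 to 0.335 in bulls.

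The other mRNAs with bulls below all calves were CYTB, ND3 and COX3, and none of these was called. Together with ND6 these were 4 of 13, where the bulls lay below all calves in 21.3% of all genes tested (30.9% without calf 3, again with 4 of 13). CYTB (ENSBTAG00000043550, MT 14514 to 15653), the mitochondrially encoded subunit of complex III, had an FPKM of 122, 259 and 735 in the calves and 102, 92.5 and 94.8 in the bulls. Its difference was −1.56 ± 0.64 on the log2 scale (SE, adjusted p = 0.0821, limma). Without calf 3 it was −0.88 with an adjusted p of 0.036, with a change too small for a call. The bulls were close to each other, at 96.5 ± 5.09 FPKM (SD, n = 3), and the calves at 372 ± 322 (SD, n = 3). ND3 (MT 9823 to 10168), a small membrane subunit of complex I, had an FPKM of 387, 635 and 2112 in the calves and 334, 320 and 363 in the bulls (log2 fold change −1.25, adjusted p = 0.149, and −0.55, adjusted p = 0.0566, without calf 3). COX3 (MT 8970 to 9750) had an FPKM of 1079, 1472 and 4291 in the calves and 856, 798 and 1029 in the bulls (−1.09, adjusted p = 0.184, and −0.50, adjusted p = 0.0508, without calf 3). For both, the gap between calf 1 and the highest bull was smaller than the spread between calves. After upper-quartile scaling ND6, CYTB and ND3 were called lower (3 of 13, background 20.1%), and after quantile normalization ND6 and CYTB (2 of 13, background 25.1%).

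In the other 9 mRNAs the ages overlapped, with calf 1 below the highest bull in each. Those of complex I were ND1 (MT 3101 to 4056), ND2 (MT 4266 to 5307), ND4L, ND4 and ND5, with log2 fold changes of −0.77, −1.08, −1.14, −1.19 and −0.85. Those of complex IV were COX1 (−0.83) and COX2 (−0.67), and those of complex V ATP8 (−1.16) and ATP6 (−0.9986). Their adjusted p-values lay between 0.19 and 0.394 (limma). Without calf 3 the same 9 lay between −0.47 and −0.028, with adjusted p-values between 0.267 and 0.953. ND1 was the gene in which bull 1 stood apart, with an FPKM of 420 against 229 and 238 in bull 2 and bull 3, and 203, 426 and 1308 in the calves. ND4L varied least among the bulls, at 111, 109 and 111.

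**Figure D2:**
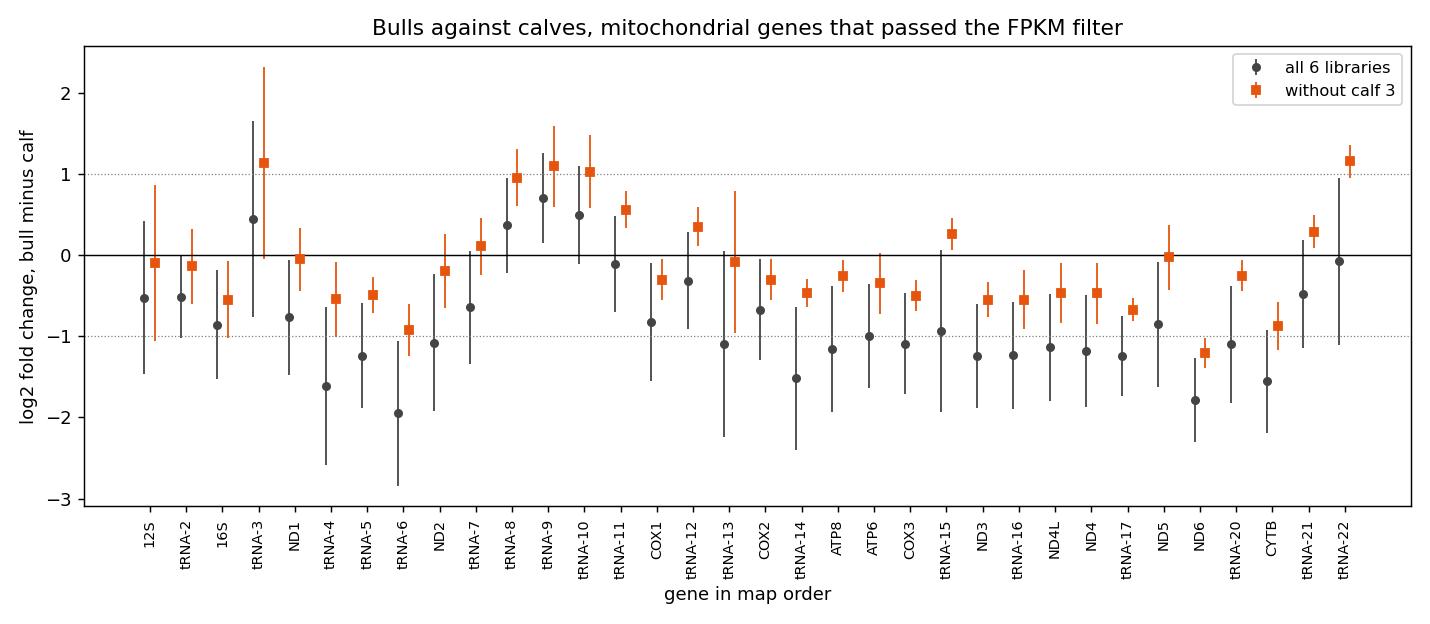
Log2 fold change (bull minus calf, log2(FPKM + 1) scale) with its standard error for the 34 mitochondrial genes that passed the FPKM filter, in map order and with the tRNA genes numbered along the map, with all 6 libraries (circles) and without calf 3 (squares). Dotted lines mark a log2 fold change of 1 in either direction. All 13 mRNAs lie below 0 in both fits, and the tRNA genes lie on both sides of 0 once calf 3 is left out.

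The calves differed from each other in the same direction across the mRNAs. Each of the 13 was highest in calf 3, at 2.09 (COX2) to 6.52 (ATP8) times the mean of calf 1 and calf 2, with a median of 3.86. Over all genes tested this ratio had a median of 0.975, and 21.9% were highest in calf 3. Calf 1 and calf 2 also differed in 1 direction. All 13 were higher in calf 2, by 1.06-fold for ATP8 to 2.95-fold for ND2 with a median of 2.10, where the median of all genes tested was 1.03.

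Relative to their own sum, the mRNAs of complex IV were the largest part in all libraries. COX1, COX2 and COX3 together made up 80.2%, 76.3% and 68.2% of the mitochondrial mRNA FPKM in the calves, and 79.4%, 77.3% and 80.7% in the bulls. Calf 3 was lowest, and the other 5 libraries lay within a few percentage points. The 7 mRNAs of complex I made up between 14.3% and 22.8%. Of the 13 shares, those of ND3, CYTB and ND6 separated the ages. With FPKM multiplied by gene length, which weights each mRNA by its fragments, CYTB and ND6 still separated them, but ND3 did not, since bull 2 (2.177%) was above calf 1 (2.176%). The share of ND6 was 0.869%, 0.680% and 0.827% in the calves and 0.315%, 0.472% and 0.488% in the bulls. For CYTB it was 1.94%, 2.64% and 2.97% in the calves and 1.51%, 1.76% and 1.46% in the bulls, and for ND3 6.16%, 6.47% and 8.54% in the calves and 4.93%, 6.10% and 5.57% in the bulls. Each of these reached the smallest p of the design (two-sided exact permutation test, p = 0.1, and 0.433 after Benjamini-Hochberg adjustment over 13 shares), which does not pass a threshold of 0.05. In the share of ND6, calf 3 lay between calf 1 and calf 2, unlike in its FPKM. The difference in that share was −0.37 percentage points with calf 3 and −0.35 without it.

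**Figure D3:**
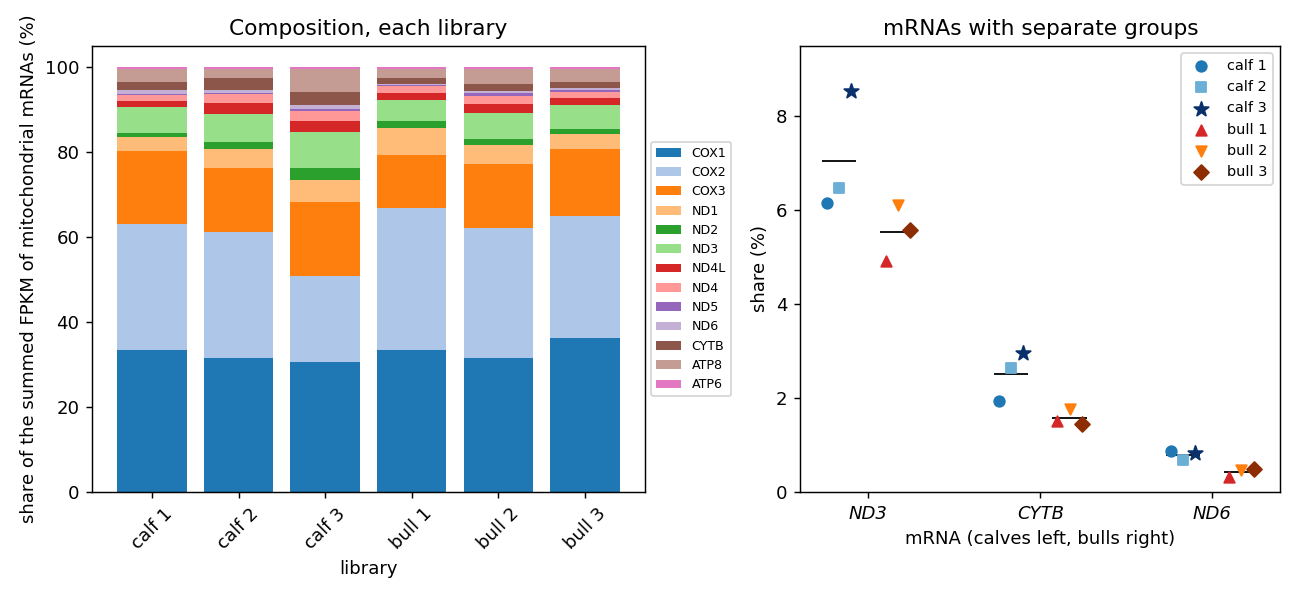
Left, the share of each mRNA in the summed FPKM of the 13 mitochondrial mRNAs (%, stacked to 100) in each library. Right, the shares of ND3, CYTB and ND6 with 1 point per library and a line at each group mean, where every bull lies below every calf (not for ND3 with FPKM multiplied by gene length).

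The rRNA and tRNA genes were on another scale than the mRNAs in the deposited table of transcripts. For genes with a single transcript, the FPKM in the table of genes equals that in the table of transcripts if both use 1 scale, and it did so for the 13 mRNAs in all libraries. Values above an FPKM of 0.5 were compared and taken as equal within a relative tolerance of 0.005. For 1791 genes, the 24 mitochondrial rRNA and tRNA genes among them and no gene with a protein-coding symbol, the value in the table of transcripts was the value in the table of genes times 1 factor per library. That factor was 0.938, 0.91 and 1.70 in the calves and 1.29, 1.30 and 1.37 in the bulls. Within rounding, this factor was inversely proportional to the summed FPKM of all genes in the library. Those sums were 1.066e+06, 1.099e+06 and 587066 in the calves and 776839, 770191 and 732130 in the bulls. The table of transcripts thus holds these genes rescaled to a common sum per library (TPM). The table of genes holds them in FPKM, like the mRNAs. The values below are from the table of genes unless stated, and differences between the ages depend on this choice. Ratios within a library between these genes do not.

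For both rRNAs the difference between the ages was within the spread between animals. The longer gene (ENSBTAG00000043570, MT 1453 to 3023, 1571 bases), which encodes the 16S rRNA of the large mitochondrial ribosomal subunit, had an FPKM of 3129, 1537 and 4175 in the calves and 1989, 849 and 1989 in the bulls. The shorter gene (ENSBTAG00000043567, MT 431 to 1385, 955 bases), for the 12S rRNA of the small subunit, had an FPKM of 481, 58.8 and 409 in the calves and 211, 69.1 and 267 in the bulls. For both genes calf 2 was the lowest calf and bull 2 the lowest bull, and the ages overlapped. The log2 fold changes were −0.86 ± 0.67 (SE, adjusted p = 0.316, limma) for 16S and −0.52 ± 0.95 (SE, adjusted p = 0.663) for 12S, and −0.55 and −0.10 without calf 3. Neither rRNA was called. With the rescaled values of the table of transcripts, the sum of both was 3386, 1453 and 7809 in the calves and 2832, 1192 and 3081 in the bulls, again with overlap. The 2 rRNAs, which are transcribed together, did not keep 1 ratio. 16S exceeded 12S by 6.50, 26.1 and 10.2-fold in the calves and by 9.42, 12.3 and 7.44-fold in the bulls (two-sided exact permutation test on the log2 ratio, p = 0.8, n = 3). Calf 2 stood apart in this ratio, and without it the difference in the log2 ratio turned from −0.34 to 0.23. Reads that matched ribosomal RNA had been removed both in the laboratory and in the processing by the authors, so these levels describe what was left.

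The tRNA genes, of 60 to 75 bases, were low throughout, and none was called with all libraries. They are numbered here from 1 to 22 along the map, since the tables give identifiers and no amino acid. Their median FPKM lay between 2.82 in bull 2 and 18.0 in calf 3, where the median mRNA lay between 109 and 735. The cDNA fragments selected for sequencing were longer than any of these genes, and the part of that selection in these levels was not tested. Of the 22, 19 passed the FPKM filter and 0 were called in either direction (limma, with 1 at an unadjusted p below 0.05), and 15 of the 19 had log2 fold changes below 0. The highest value among the libraries was in calf 3 for 19 of all 22. Summed over the 22 genes, the FPKM was 116, 165 and 856 in the calves and 207, 140 and 189 in the bulls. With the rescaled values of the table of transcripts the sum was 109, 150 and 1458 in the calves and 267, 182 and 258 in the bulls. Without calf 3 the bulls were above the calves in these rescaled sums and overlapped with them in FPKM. The rescaled sums are the same values in another unit, not a second estimate.

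The tRNA genes with the highest mean FPKM were tRNA-6, tRNA-12 and tRNA-3. tRNA-6 (ENSBTAG00000043549, MT 4197 to 4265), just before ND2, had an FPKM of 19.9, 44.96 and 258 in the calves and 16.4, 13.5 and 16.1 in the bulls. All bulls were below all calves, but the difference was within the spread between calves (log2 fold change −1.95, adjusted p = 0.111, limma). Without calf 3 it was −0.93 (adjusted p = 0.0384, limma), too small a change for a call. tRNA-12 (ENSBTAG00000043545, MT 7229 to 7299), which shares 3 bases with the end of COX1, had an FPKM of 20.9, 28.9 and 102 in the calves and 29.9, 25.1 and 42.1 in the bulls, with overlap (−0.32, adjusted p = 0.676, and 0.35, adjusted p = 0.234, without calf 3). tRNA-3 (ENSBTAG00000043555, MT 3024 to 3098), between 16S and ND1, had an FPKM of 3.14, 23.8 and 41.5 in the calves and 94.9, 10.98 and 8.55 in the bulls. Its highest value was in bull 1, the bull in which ND1 was also highest (0.44, adjusted p = 0.776, and 1.13, adjusted p = 0.414, without calf 3). The lowest were tRNA-1, tRNA-18 and tRNA-19, which had at most 2.56 FPKM in any library and were not tested. tRNA-1 (MT 364 to 430) was listed at 0 in calf 2.

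Without calf 3, tRNA-22 (ENSBTAG00000043582, MT 15726 to 15791) was called higher in bulls, 1 of 19 (background 37.9% higher). It had an FPKM of 3.67, 4.36 and 64.2 in the calves and 9.63, 8.31 and 12.99 in the bulls. The bulls lay above calf 1 and calf 2 and far below calf 3. The log2 fold change was −0.079 (adjusted p = 0.955, limma) with calf 3 and 1.16 (adjusted p = 0.0024, limma) without it. With the rescaled values of the table of transcripts, the order of the libraries was the same, at 3.44, 3.97 and 109 in the calves and 12.4, 10.8 and 17.7 in the bulls. Between CYTB and tRNA-22 lies tRNA-21 (MT 15658 to 15726). Its log2 fold change was −0.48 with calf 3 (adjusted p = 0.568, limma) and 0.29 without it (adjusted p = 0.247, limma). Without calf 3, 9 of the 19 tRNA genes tested lay below 0 and 10 above. Of those below, tRNA-17 (ENSBTAG00000043544, MT 11907 to 11976), after ND4, had an FPKM of 2.58, 2.23 and 10.1 in the calves and 1.13, 1.03 and 1.25 in the bulls. All bulls were below all calves, and the log2 fold change was −1.24 (adjusted p = 0.074, limma), and −0.67 (adjusted p = 0.0046) without calf 3. tRNA-17 was called lower after upper-quartile scaling (−1.64, adjusted p = 0.0277) and quantile normalization (−2.04, adjusted p = 0.0117). In these settings 2 and 4 of 19 tRNA genes were called lower, where 20.1% and 25.1% of all genes tested were. For tRNA-14, named after its values were seen, the log2 fold change without calf 3 was −0.46 (adjusted p = 0.049, limma), which was not called, and −1.52 (adjusted p = 0.192) with it. A run of 4 tRNA genes between ND2 and COX1, tRNA-8 to tRNA-11 (MT 5376 to 5685), was chosen after its values were seen. Without calf 3 their log2 fold changes were 0.95, 1.09, 1.02 and 0.56, with adjusted p-values of 0.047, 0.0884, 0.0793 and 0.0671 (limma), and none was called. With calf 3 they were 0.37, 0.71, 0.49 and −0.11. tRNA-7 (MT 5308 to 5374), between ND2 and this run, is not part of it. Its log2 fold change was 0.11 without calf 3 (adjusted p = 0.794, limma) and −0.64 with it.

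**Figure D4:**
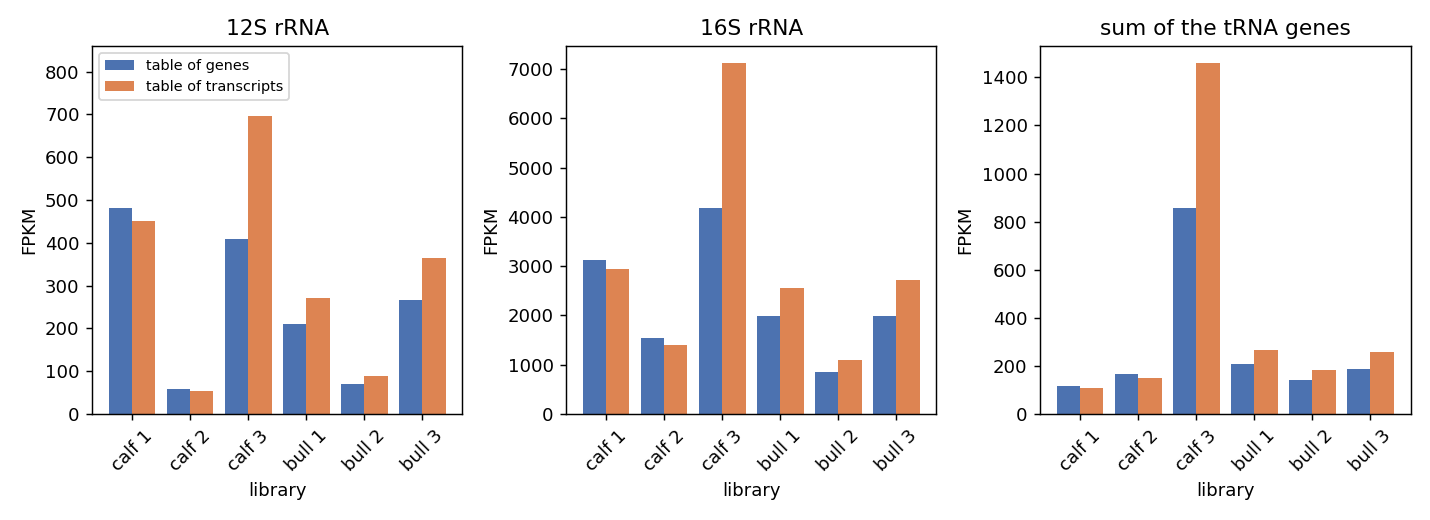
FPKM of the 12S rRNA, of the 16S rRNA and summed over the 22 mitochondrial tRNA genes in each library, in the table of genes and in the table of transcripts. The axis is labelled FPKM for both, but the bars of the table of transcripts are rescaled by 1 factor per library (TPM). Calf 3 is highest for 16S and for the tRNA sum in both tables.

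Among nuclear genes that build the same complexes or act on mitochondrial RNA, some were higher and some lower in bulls. Of 120 genes in 9 lists, 112 were tested, and 20 were called higher and 11 lower in bulls (19 and 11 without calf 3), against the 35.7% and 9.61% of all genes tested. The median of their log2 fold changes was 0.12, below the 0.43 of all genes tested. After upper-quartile scaling the counts were 11 higher and 26 lower (background 27.9% and 20.1%), and after quantile normalization 12 and 33 (21.1% and 25.1%), so the balance of directions depended on the scaling.

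Among 17 tested genes of mitochondrial transcription and the nucleoid, 3 were called higher and 2 lower. TFAM (ENSBTAG00000003546), which packages mitochondrial DNA and starts its transcription, had an FPKM of 14.8, 14.1 and 13.2 in the calves and 197, 205 and 226 in the bulls. The groups were far apart, calf 3 lay beside the other calves, and the difference was 3.81 ± 0.14 on the log2 scale (SE, adjusted p = 9.63e-06, limma), and 3.77 without calf 3. In the same bulls the summed mitochondrial mRNA lay between 5243 and 6772 FPKM, against 6286 to 24724 in the calves. POLG2, the accessory subunit of the mitochondrial DNA polymerase, rose by 1.88 on the log2 scale. ATAD3A, a membrane protein at the nucleoid, fell by 1.33 and MTERF1, which binds a termination site downstream of the rRNA genes, by 1.27. Of 28 tested genes of RNA processing and turnover, 4 were called higher and 3 lower. FASTKD2, an RNA-binding protein needed for 16S rRNA, rose by 2.51 and MRM1, a methyltransferase of 16S rRNA, by 2.30. HSD17B10, a subunit of mitochondrial RNase P, fell by 1.19, and FASTKD1 by 1.07. Of the called nuclear genes named here, FASTKD1 was the 1 not called without calf 3. Of 13 translation factors, 2 were called higher and 0 lower: MTIF3, an initiation factor, at 2.57 and LETM1, a membrane protein linked to the mitochondrial ribosome, at 1.75. Of 6 tested regulators of mitochondrial biogenesis, 0 were called (limma), with 3 at an unadjusted p below 0.05. Without calf 3, 1 of them was called higher, ESRRA, a nuclear receptor that activates genes of oxidative metabolism (1.27, adjusted p = 0.000452, and 0.96 with calf 3), named after its values were seen.

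For the complexes themselves, nuclear and mitochondrial subunits were compared by their log2 fold changes. Of 13 tested nuclear subunits of complex IV, 4 were called higher and 4 lower. The testis forms COX7B2 and COX6B2 rose by 5.57 and 5.43, whereas COX7B and COX7A1 fell by 2.10 and 1.17. COX7B2 had an FPKM of 5.69, 3.52 and 0.372 in the calves and 157, 176 and 159 in the bulls. The mitochondrial COX1, COX2 and COX3 were not called beside them. Of 7 core subunits of complex I, 2 were called higher, NDUFV2 (1.67) and NDUFS8 (1.42), and 0 lower, while 1 of the 7 mitochondrial subunits, ND6, was called lower. In complex III, 2 of 9 were called higher (UQCRB 2.10 and UQCR10 1.52) and 1 lower (UQCRH −1.07), beside CYTB, which was not called. In complex V, 3 of 15 were called higher, with ATP5F1E (1.34) and ATP5MF (1.23) first, and 1 lower, ATP5MC2 (−1.95). After upper-quartile scaling NDUFS8, UQCR10, ATP5F1E and ATP5MF were no longer called. Complex II has no mitochondrially encoded subunit, and 0 of its 4 genes were called (limma), with 3 at an unadjusted p below 0.05. In level, the median mitochondrial mRNA of complex IV was 1858, 2923 and 4998 FPKM in the calves and 2258, 1596 and 1862 in the bulls, and the median of the nuclear subunits was between 49.4 and 70.5 FPKM in all libraries. For complex V the medians lay closer together, at 82.7 to 736 FPKM for the mitochondrial and 82.0 to 116 FPKM for the nuclear subunits.

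**Figure D5:**
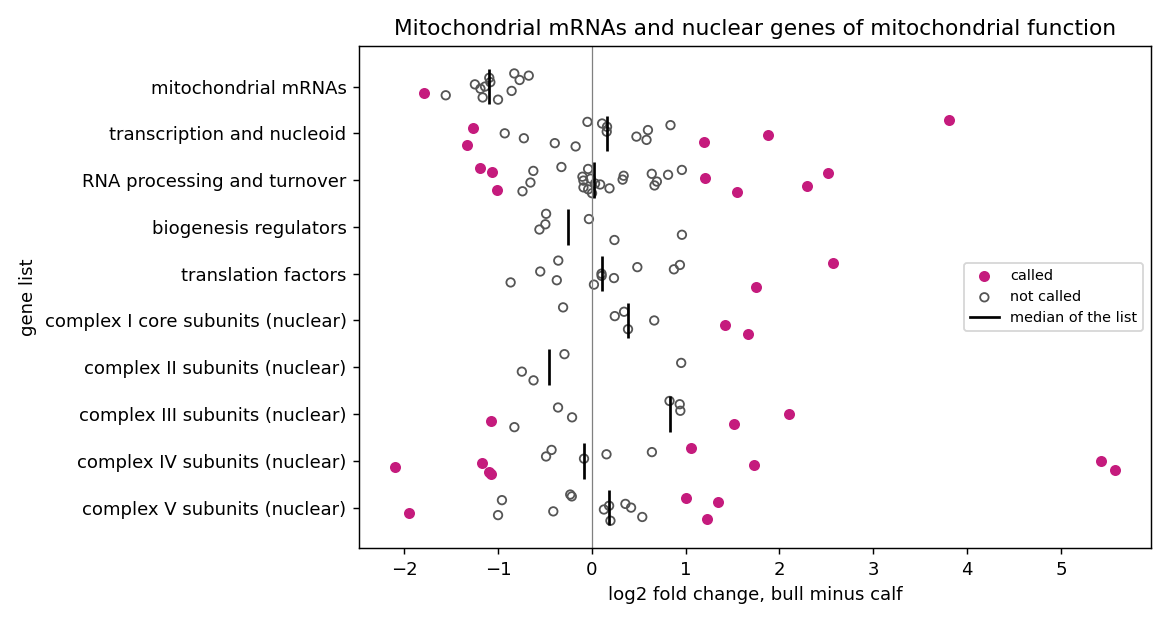
Log2 fold change (bull minus calf) of the 13 mitochondrial mRNAs and of the 112 tested nuclear genes in 9 lists, with 1 point per gene, filled where called, and a black line at the median of each list. The mitochondrial mRNAs all lie below 0 with a median of −1.09, and the nuclear lists spread to both sides, with TFAM, COX6B2 and COX7B2 farthest to the right.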

How the data were processed

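The deposited FPKM values come in tables of genes and of transcripts, with 1 column per animal. According to the Methods, they removed low-quality reads and, with Bowtie2, reads of ribosomal RNA, mapped the others with TopHat2 to an assembly named UMD3.1.1 and assembled transcripts with StringTie. The tool that made the FPKM values of genes is not given in the sources used here. Positions are those of the table of genes. The 12S and 16S genes were told apart by length, and no sequence was used.

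Groups were taken from the labels, which name separate animals. Values were transformed to log2(FPKM + 1), a scale that understates the change of low genes, and the 18115 genes were tested that reached an FPKM of 1 in 3 or more of the 6 libraries. Groups were compared with limma 3.58.1 in R 4.3.3, with a trend and Benjamini-Hochberg adjustment across the tested genes. Single values were compared by exact permutation of the 20 labelings. Tables and figures were made with Python 3.11.15, scipy 1.17.1 and matplotlib 3.10.9. A simulation of bulls against calves took its spread within groups without calf 3. Of its 17549 fitted genes, 200 were given a shift of 2 on the log2 scale. Of these, 180 were recovered, and 3 genes without a shift were called. Recovery at the spread of the fit with all 6 libraries was not tested.

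All mRNA and rRNA genes were named, of the tRNA genes the 3 highest, the 3 lowest and those called, and of each nuclear list the 2 largest called increases and decreases. Members and lists were chosen with earlier results of these data known. Alternatives were another pseudocount, no filter, upper-quartile scaling, quantile normalization, no trend, array weights, a replicate block, each library left out, and the table of transcripts.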

Additional observations from a re-analysis of the deposited data

How the results depend on the processing

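Counts of calls depended on the scaling, on array weights and on single libraries. Lower mRNAs in bulls numbered 1, and 3 after upper-quartile scaling and 2 after quantile normalization. Lower tRNA genes numbered 0, and 2 and 4 of 19 under these settings, where 20.1% and 25.1% of all genes tested were called lower. Higher tRNA genes numbered 0, and 3 of 19 with array weights, where 37.9% of all genes tested were called higher. Higher listed nuclear genes numbered 20, and 11 and 12 after upper-quartile scaling and quantile normalization, and lower ones 11, and 26 and 33. Leaving out each library in turn gave 0 to 5 lower mRNAs, with 5 without calf 1 (ATP6, ND4L, ND4, ND6 and CYTB) and 0 without any bull, 0 to 1 higher and 0 to 2 lower tRNA genes, and 17 to 21 higher and 9 to 11 lower nuclear genes. The 2 lower tRNA genes were called without calf 1, where 9.19% of all genes tested were called lower. The cause of these differences was not tested.

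The direction of single genes turned in some settings. After quantile normalization and upper-quartile scaling, the log2 fold change was −0.20 and −0.13 for tRNA-3, −0.15 and −0.17 for tRNA-8, and −0.033 and −0.069 for tRNA-10, and that of COX2 was 0.14 after quantile normalization. With array weights it was 0.29 for tRNA-12, 0.51 for tRNA-11 and 1.06 for tRNA-22. In the table of transcripts, where the values of tRNA genes are rescaled, it was 0.0038 for tRNA-11 and 0.094 for tRNA-22. With each library left out it lay between −1.49 and 0.065 for 12S, −0.61 and 1.13 for tRNA-3, −0.50 and 0.56 for tRNA-11, −0.76 and 0.35 for tRNA-12, and −0.75 and 1.16 for tRNA-22. Differences in share lay between −0.28 and 0.996 percentage points for ND1, −0.76 and 0.11 for ND2, −1.43 and 0.21 for ATP8, and −0.092 and 0.12 for ND5, and the log2 ratio of 16S to 12S between −0.78 and 0.23.

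The replicate numbers were not taken to pair the animals. Deviations of same-numbered libraries correlated at 0.028, 0.025 and 0.034. Those of the same calves with other bulls reached at most 0.022, −0.010 and −0.0097. The calf deviations include calf 3, so these values cannot decide whether the animals were paired. With the replicate block 1 mRNA was called lower (ND6, adjusted p = 0.0159, limma), with 6437 genes higher and 1691 lower over all genes tested. The share of protein-coding FPKM could not be recomputed with gene length, since the tables hold no exonic lengths of nuclear genes. The tables hold no counts, and what depth limits was not estimated from the clean reads that the paper gives.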
